A study of Mus musculus with 2 samples.

Results

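The 9 genes described here encode heat shock proteins and the cochaperones that work with them: Hspa1a, Hspa1b, Dnajb1, Hsph1, Hspb1, Hsp90aa1, Hspa8, Hspd1 and Hspe1. They were taken by symbol from the 31053 genes counted in single kidney glomerular cells of 2 mice, and each symbol matched 1 gene. Both mice were healthy C57Bl/6 animals of the genotype Pax2.rtTA;TetO.Cre;R26.Confetti, given doxycycline at 19 days of age and killed at 30 days, and all cells came from this genotype, in which the Pax2 promoter drives the doxycycline-dependent recombination of a fluorescent reporter. One 10x library of 3' ends was made per mouse, so mouse, preparation and title cannot be told apart. The library titled female had Xist, the transcript of the inactive X chromosome, at 0.621 CPM (UMIs per 1000000 of the class or library) and 4 Y-linked genes at a summed 201 CPM, while the library titled male had 1426 and 0.0346 CPM. Since these levels go against the titles, they are called the library labelled female and the library labelled male throughout, and nothing here is read as a difference between the sexes.

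After filtering, 4909 and 4442 cells remained in the libraries labelled female and male, with medians of 10672 and 9616 unique molecular identifiers (UMIs, each standing for 1 captured transcript), and 10 barcodes occurred in both libraries. Clusters were named from marker genes, with the 9 members left out of the clustering. In the libraries labelled female and male there were 74 and 49 parietal-like cells (the epithelium lining Bowman's capsule), 263 and 186 mesangial-like cells, 196 and 172 endothelial-like cells, 72 and 114 tubule-like cells and 4082 and 3666 podocyte-like cells, the epithelium of the filtration barrier. One cluster of 34 mesangial-like cells was led by cell cycle genes. Median mitochondrial shares of UMIs were 13.9% and 14.1% in tubule-like cells and lay between 3.39% and 5.40% in the other classes.

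Heat shock proteins bind unfolded chains and keep them from aggregating. In resting cells the Hsp90 and Hsp70 machinery holds heat shock factor Hsf1 inactive, and when unfolded protein draws the chaperones away, Hsf1 forms trimers and binds heat shock elements, inverted repeats of the unit GAA, before its target genes. Hspa1a and Hspa1b encode the stress-inducible Hsp70, Dnajb1 a J-domain protein that hands clients to Hsp70, and Hsph1 a nucleotide exchange factor of the Hsp110 family, and these 4 were grouped as inducible. Hspb1, a small heat shock protein that also binds actin filaments, and Hsp90aa1, the inducible cytosolic Hsp90, are inducible with a basal level. Hspa8, the constitutive cytosolic Hsp70, and Hspd1 and Hspe1, the chaperonin of the mitochondrial matrix and its lid, were grouped as constitutive. Tissue dissociation is a known inducer of the inducible members in single-cell preparations, and its part in these levels was not tested.

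Of the upstream sequences 5 are shown, because they show how closely Hspa1a and Hspa1b match and where repeats of the GAA unit lie in those that hold them. RefSeq promoter entries (GRCm38.p6) matched 7 of the 9 members. Each sequence is the 250 bases before the start site, 5′ to 3′ on the gene's own strand, with each match to GAANNTTC or TTCNNGAA (searched on both strands, each being its own reverse complement) in capitals.
Hspa1a, chr17:34972157-34972406, minus strand: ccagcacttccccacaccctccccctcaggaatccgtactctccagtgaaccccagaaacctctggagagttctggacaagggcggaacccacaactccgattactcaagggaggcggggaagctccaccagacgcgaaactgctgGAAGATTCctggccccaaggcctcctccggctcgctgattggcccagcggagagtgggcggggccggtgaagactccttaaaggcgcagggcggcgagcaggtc
Hspa1b, chr17:34959239-34959488, minus strand: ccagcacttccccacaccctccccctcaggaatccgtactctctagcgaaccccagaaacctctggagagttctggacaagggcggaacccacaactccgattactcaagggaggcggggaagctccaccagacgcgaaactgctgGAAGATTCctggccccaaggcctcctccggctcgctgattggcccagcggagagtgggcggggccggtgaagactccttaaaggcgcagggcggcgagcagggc
Hsph1, first of 2 start sites, chr5:149636337-149636586, minus strand: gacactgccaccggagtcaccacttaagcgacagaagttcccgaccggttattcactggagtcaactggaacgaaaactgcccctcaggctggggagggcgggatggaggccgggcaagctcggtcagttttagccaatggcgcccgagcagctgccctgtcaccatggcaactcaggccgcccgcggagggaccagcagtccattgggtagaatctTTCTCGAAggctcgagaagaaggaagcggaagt
Hspb1, chr5:135887669-135887918, plus strand: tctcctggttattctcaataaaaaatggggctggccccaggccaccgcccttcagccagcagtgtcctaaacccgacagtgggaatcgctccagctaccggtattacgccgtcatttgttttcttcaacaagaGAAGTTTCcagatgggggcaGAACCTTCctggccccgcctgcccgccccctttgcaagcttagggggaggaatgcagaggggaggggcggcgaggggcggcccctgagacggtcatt
Hspe1, chr1:55087898-55088147, plus strand: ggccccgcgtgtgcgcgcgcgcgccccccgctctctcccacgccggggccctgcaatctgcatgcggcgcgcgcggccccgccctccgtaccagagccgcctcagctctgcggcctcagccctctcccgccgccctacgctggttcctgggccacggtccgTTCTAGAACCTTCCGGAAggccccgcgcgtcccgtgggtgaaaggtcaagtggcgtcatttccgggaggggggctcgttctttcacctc

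The Hspa1a and Hspa1b sequences were identical at 247 of 250 bases (98.8%), and each held 1 match, at bases -104 to -97 from the start site. Hsph1 held 1 match at -33 to -26, Hspb1 held 2 at -117 to -110 and -97 to -90, and Hspe1 held 3 that overlap each other between -89 and -72. Hspd1, which is transcribed the other way from the same region, held 3 overlapping matches before its second start site. They are the same genomic bases as the 3 before Hspe1, read on the other strand. Dnajb1 held none before either start site. Of 32851 mouse promoters of the same length, 12.8% held at least 1 match and 1.46% held 2 or more. A match describes the letters and not a bound site.

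In the GENCODE M21 annotation of GRCm38, Hspa1a (chromosome 17, 34969190 to 34972156) and Hspa1b (chromosome 17, 34956436 to 34959238) are single-exon genes 9952 bases apart, both on the minus strand. Their transcripts shared 58.8% (Hspa1a) and 62.3% (Hspa1b) of all stretches of 50 bases but 0% of those in the last 400 bases, and the position of the counted reads is not known here, so how the counts divide between this pair is uncertain. Hspd1 (chromosome 1, 55077835 to 55088243, minus strand, 12 exons) and Hspe1 (chromosome 1, 55088132 to 55091307, plus strand, 4 exons) overlap at their start sites. Dnajb1 (chromosome 8, 83608193 to 83612653), Hsph1 (chromosome 5, 149614287 to 149636376), Hspb1 (chromosome 5, 135887919 to 135889563), Hsp90aa1 (chromosome 12, 110690605 to 110702728) and Hspa8 (chromosome 9, 40800984 to 40810087) lie apart from the others. All 9 are protein-coding, and whether counting used the strand is not given in the sources.

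Counts were summed over the cells of a class in each library, and levels are CPM of that sum, where each pair of values stands for the libraries labelled female and male. Hspa1a stood at 214 and 188 CPM in parietal-like cells, 416 and 521 in mesangial-like, 431 and 685 in endothelial-like, 386 and 342 in tubule-like and 623 and 317 CPM in podocyte-like cells. Among the classes listed, the parietal-like values were the lowest in both libraries. The spread between the podocyte-like values covered the mesangial-like and tubule-like ones. Immune cells and the unnamed cluster, which were not tested, had Hspa1a at 348 and 147 and at 273 and 130 CPM. Both lay below parietal-like cells in the library labelled male and above them in the other. Podocyte-like clusters differed too, with 157 and 110 CPM in that of 225 and 361 cells and 1173 and 821 CPM in that of 190 and 129 cells. Hspa1b stood at 44.6 and 49.9 CPM in parietal-like cells, 170 and 203 in mesangial-like, 148 and 214 in endothelial-like, 201 and 172 in tubule-like and 306 and 126 CPM in podocyte-like cells. Among the classes listed, both parietal-like values again lay below every other value, and the other 4 classes overlapped. Immune cells had Hspa1b at 139 and 34.1 CPM, below parietal-like cells in the library labelled male. The unnamed cluster, at 86.0 and 57.6 CPM, lay above them in both.

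Dnajb1 stood at 86.5 and 118 CPM in parietal-like cells, 76.1 and 90.4 in mesangial-like, 109 and 128 in endothelial-like, 127 and 71.7 in tubule-like and 140 and 80.0 CPM in podocyte-like cells, and all classes overlapped in range with the podocyte-like one. Hsph1 stood at 85.4 and 91.0 CPM in parietal-like cells, 60.4 and 53.5 in mesangial-like, 89.8 and 91.5 in endothelial-like, 187 and 115 in tubule-like and 116 and 67.7 CPM in podocyte-like cells. Within each library its highest level was in tubule-like and its lowest in mesangial-like cells.

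Hspb1 stood at 420 and 475 CPM in parietal-like cells, 132 and 162 in mesangial-like, 789 and 1012 in endothelial-like, 135 and 50.9 in tubule-like and 317 and 170 CPM in podocyte-like cells. Among these 5 classes the endothelial-like values lay above all others and the parietal-like ones second, with no overlap with the remaining 3. Smooth muscle or renin cells, 44 and 62 cells that were not tested, were also high. With a podocyte profile subtracted, Hspb1 stood at 843 and 967 CPM in them. On that scale it stood at 849 and 1150 CPM in endothelial-like and 426 and 481 CPM in parietal-like cells. Hsp90aa1 stood at 1310 and 1499 CPM in parietal-like cells, 849 and 833 in mesangial-like, 739 and 1096 in endothelial-like, 1069 and 974 in tubule-like and 1176 and 965 CPM in podocyte-like cells, so that it was highest in parietal-like cells of both libraries.

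Of the constitutive members, Hspa8 stood at 1397 and 1410 CPM in parietal-like cells, 1551 and 1269 in mesangial-like, 1695 and 1714 in endothelial-like, 1410 and 1210 in tubule-like and 1578 and 1384 CPM in podocyte-like cells. The ratio of its highest to its lowest value was smaller than that of each other member. Hspd1 stood at 217 and 251 CPM in parietal-like cells, 154 and 145 in mesangial-like, 125 and 133 in endothelial-like, 342 and 362 in tubule-like and 173 and 137 CPM in podocyte-like cells. Hspe1 stood at 268 and 306 CPM in parietal-like cells, 169 and 157 in mesangial-like, 166 and 157 in endothelial-like, 495 and 513 in tubule-like and 285 and 238 CPM in podocyte-like cells. Both chaperonin genes were highest in tubule-like cells of both libraries, the class with the highest mitochondrial share, and the part of that share in the result was not tested.

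**Figure D1:**
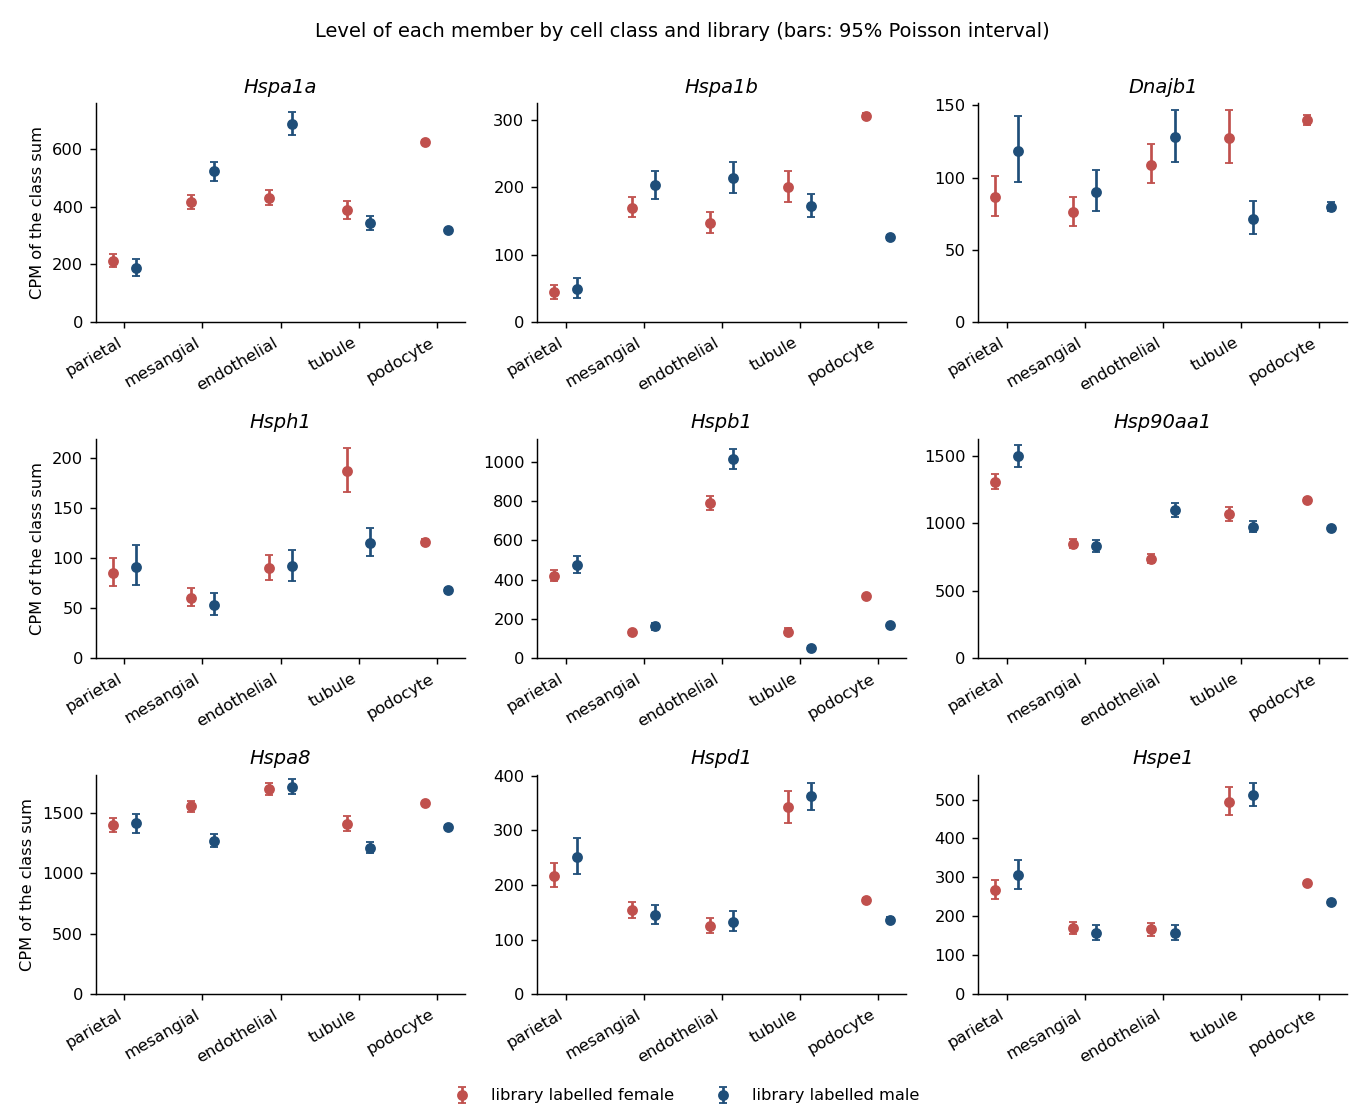
Level of each member (CPM of the class sum, linear axis from 0) in 5 cell classes, with the library labelled female left of the library labelled male and 95% Poisson intervals as bars. Hspa1b is lowest in parietal-like cells (44.6 and 49.9 CPM), Hspb1 highest in endothelial-like cells (789 and 1012 CPM) and Hspe1 highest in tubule-like cells (495 and 513 CPM).

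Differences between classes were tested with edgeR's quasi-likelihood test on the summed counts of 5 classes in 2 libraries, with the library as a block and Benjamini-Hochberg adjustment over all 12419 genes tested, and all 9 members passed the filter on low counts. The classes are cells of the same 2 mice. With the library as a block, a shift common to all classes of a library is taken out. The p-values then rest on how far class differences vary between the 2 libraries, with the spread estimated over all 5 classes together. Against podocyte-like cells, 3 members fell in parietal-like, 5 in mesangial-like, 2 in endothelial-like and 1 in tubule-like cells, where 24.9%, 28.8%, 28.4% and 26.7% of all genes tested fell. In the other direction 1 member rose in endothelial-like and 3 in tubule-like cells, where 26.3% and 30.4% of all genes rose. Of members higher in parietal-like cells edgeR called 0, with 1 at an unadjusted p under 0.05 and 1 called by DESeq2, and in mesangial-like cells it called 0, with 0 at an unadjusted p under 0.05 and 0 by DESeq2, where 27.6% and 27.8% of all genes rose. The median log2 fold change of the 9 members was -0.30, -0.56, -0.13 and -0.16 in parietal-like, mesangial-like, endothelial-like and tubule-like cells, against -0.04, -0.08, -0.10 and -0.003 over all genes. Without the 2 podocyte-like clusters led by early response genes these medians of the members were 0.10, -0.13, 0.22 and 0.31, so the direction turned in 3 of 4 classes. In the library labelled female alone they were -0.17, -0.73, -0.44 and -0.14, and in that labelled male 0.38, -0.06, 0.39 and 0.11, on the log2(CPM + 10) scale. With DESeq2 the split of all genes between higher and lower moved to 3651 and 1849 in parietal-like, 3611 and 2245 in mesangial-like, 3378 and 2213 in endothelial-like and 3990 and 2043 in tubule-like cells, from 3424 and 3095, 3451 and 3579, 3266 and 3531, and 3778 and 3314 with edgeR. Scaling by size factors (RLE) moved the median of all genes from between -0.10 and -0.003 to between 0.01 and 0.10.

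The 2 Hsp70 genes made the clearest class difference among the inducible members. Hspa1a fell by 1.45 on the log2 scale in parietal-like against podocyte-like cells (SE 0.30, edgeR adjusted p = 0.00164) and Hspa1b fell by 2.43 (SE 0.39, edgeR adjusted p = 0.000277). Each was also lower in parietal-like than in mesangial-like, endothelial-like and tubule-like cells, with log2 fold changes of -1.25, -1.58 and -1.10 for Hspa1a (edgeR adjusted p = 0.00567, 0.00136 and 0.0151) and of -2.04, -2.07 and -2.25 for Hspa1b (edgeR adjusted p = 0.0016, 0.00151 and 0.00119). By library, labelled female and male, the differences of parietal-like over podocyte-like cells were -1.50 and -0.73 for Hspa1a and -2.53 and -1.18 for Hspa1b, on the log2(CPM + 10) scale. Between the other 4 classes neither gene passed the test as fitted. Without a filter on low counts Hspa1b passed in mesangial-like and endothelial-like and Hspa1a in tubule-like over podocyte-like cells, all lower, and without the podocyte clusters led by early response genes Hspa1a passed in endothelial-like over podocyte-like cells at 0.60 (edgeR adjusted p = 0.0478). Hspa1a in endothelial-like over tubule-like cells passed under 1 of 10 alternatives. The summed CPM of 17 early response genes (Fos, Jun, Egr1 and others, transcribed within minutes of a stimulus) was 15537 and 16730 in parietal-like and 25194 and 16476 in podocyte-like cells. Of the 17 genes, 10 were called lower and 1 higher in parietal-like cells by edgeR, with a median log2 fold change of -0.78. Their part in the difference of Hspa1a and Hspa1b was not tested.

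Hsph1 rose in tubule-like cells by 0.73 on the log2 scale (SE 0.18, edgeR adjusted p = 0.00536) and fell in mesangial-like cells by 0.88 (SE 0.20, edgeR adjusted p = 0.00288), both against podocyte-like cells. The mesangial-like difference was -0.84 in the library labelled female and -0.29 in that labelled male. Hsph1 was also higher in tubule-like than in parietal-like, mesangial-like and endothelial-like cells (edgeR adjusted p = 0.00382, 7.04e-05 and 0.00462). Dnajb1, its partner in the Hsp70 cycle, passed the test in no pair of classes under edgeR, and its log2 fold changes over podocyte-like cells were -0.36, -0.60, -0.01 and -0.16 in parietal-like, mesangial-like, endothelial-like and tubule-like cells (edgeR adjusted p between 0.0806 and 0.97). It passed in 2 of these classes, parietal-like and mesangial-like, without a filter on low counts, and in endothelial-like cells at 0.59 (edgeR adjusted p = 0.0369) without the podocyte clusters led by early response genes.

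Hspb1 rose by 1.80 on the log2 scale in endothelial-like over podocyte-like cells (SE 0.34, edgeR adjusted p = 0.000817) and was higher there than in parietal-like, mesangial-like and tubule-like cells too. The difference from podocyte-like cells was 1.29 in the library labelled female and 2.51 in that labelled male. The log2 difference of endothelial-like over tubule-like cells was 3.22 (SE 0.38, edgeR adjusted p = 2.51e-05). In tubule-like cells it fell by 1.42 against podocyte-like cells (SE 0.36, edgeR adjusted p = 0.00533). Its fall of 0.90 in mesangial-like cells (SE 0.34, edgeR adjusted p = 0.0439) was lost under 7 of 11 alternatives, with adjusted p from 1.45e-09 to 0.20 over all 11. The difference was -1.21 in the library labelled female and -0.062 in that labelled male. The value in parietal-like over podocyte-like cells was 0.68 (edgeR adjusted p = 0.114), and it passed without the podocyte clusters led by early response genes, at 1.10 (edgeR adjusted p = 0.00837).

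Hsp90aa1 fell in mesangial-like against podocyte-like cells by 0.56 on the log2 scale (SE 0.17, edgeR adjusted p = 0.0138). The call was lost with DESeq2 (adjusted p = 0.0992) and without the podocyte clusters led by early response genes, where edgeR's adjusted p was 0.214. By library the difference was -0.46 under the female and -0.21 under the male label. Hsp90aa1 was higher in parietal-like than in mesangial-like cells by 0.71 (edgeR adjusted p = 0.00535) and than in endothelial-like cells by 0.52 (edgeR adjusted p = 0.0262). The first call held under 9 of 10 alternatives (adjusted p up to 0.101) and the second under 7 of 10 (log2 value down to 0.17, adjusted p up to 0.452).

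In tubule-like over podocyte-like cells Hspd1 rose by 1.19 (SE 0.14, edgeR adjusted p = 1.91e-05) and Hspe1 by 0.96 on the log2 scale (SE 0.13, edgeR adjusted p = 5.91e-05), and both were higher in tubule-like cells than in each of the other 3 classes. Hspe1 fell by 0.89 in mesangial-like cells (SE 0.13, edgeR adjusted p = 0.000124) and by 0.83 in endothelial-like cells (SE 0.13, edgeR adjusted p = 0.000235) against podocyte-like cells. For Hspd1 the log2 fold change was -0.26 in mesangial-like cells (edgeR adjusted p = 0.146) and -0.40 in endothelial-like cells (edgeR adjusted p = 0.0333), and the second call was lost under 5 of 11 alternatives. The endothelial-like difference was -0.44 in the library labelled female and -0.041 in that labelled male. The ratio of Hspe1 to Hspd1 CPM was 1.24 and 1.22 in parietal-like, 1.10 and 1.08 in mesangial-like, 1.33 and 1.19 in endothelial-like, 1.45 and 1.42 in tubule-like and 1.65 and 1.74 in podocyte-like cells, highest in podocyte-like cells of both libraries.

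Hspa8 fell by 0.31 in parietal-like (SE 0.10, edgeR adjusted p = 0.0252) and by 0.28 in mesangial-like cells (SE 0.10, edgeR adjusted p = 0.0369) against podocyte-like cells, the smallest changes called among the members. Neither call held when counts were scaled by RLE size factors (edgeR adjusted p = 0.145 and 0.215), and in the library labelled male alone the parietal-like level was 0.027 higher on the log2 scale. The mesangial-like difference was -0.025 in the library labelled female and -0.12 in that labelled male on the log2(CPM + 10) scale, both smaller than edgeR's value. Against endothelial-like cells, Hspa8 was lower in parietal-like cells by 0.38 (edgeR adjusted p = 0.011, held under 10 of 10 alternatives) and in mesangial-like cells by 0.35 (edgeR adjusted p = 0.0226, held under 10 of 11). Between the 4 classes other than podocyte-like, edgeR called 4 members higher and 2 lower in parietal-like over mesangial-like cells (45.1% of all genes were called in either direction), 3 and 4 in parietal-like over endothelial-like (44.9%), and 1 and 5 in parietal-like over tubule-like cells (35.6%). It called 3 lower in mesangial-like over endothelial-like (32.6%), 4 lower in mesangial-like over tubule-like (55%), and 1 higher and 3 lower in endothelial-like over tubule-like cells (52.4%).

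**Figure D2:**
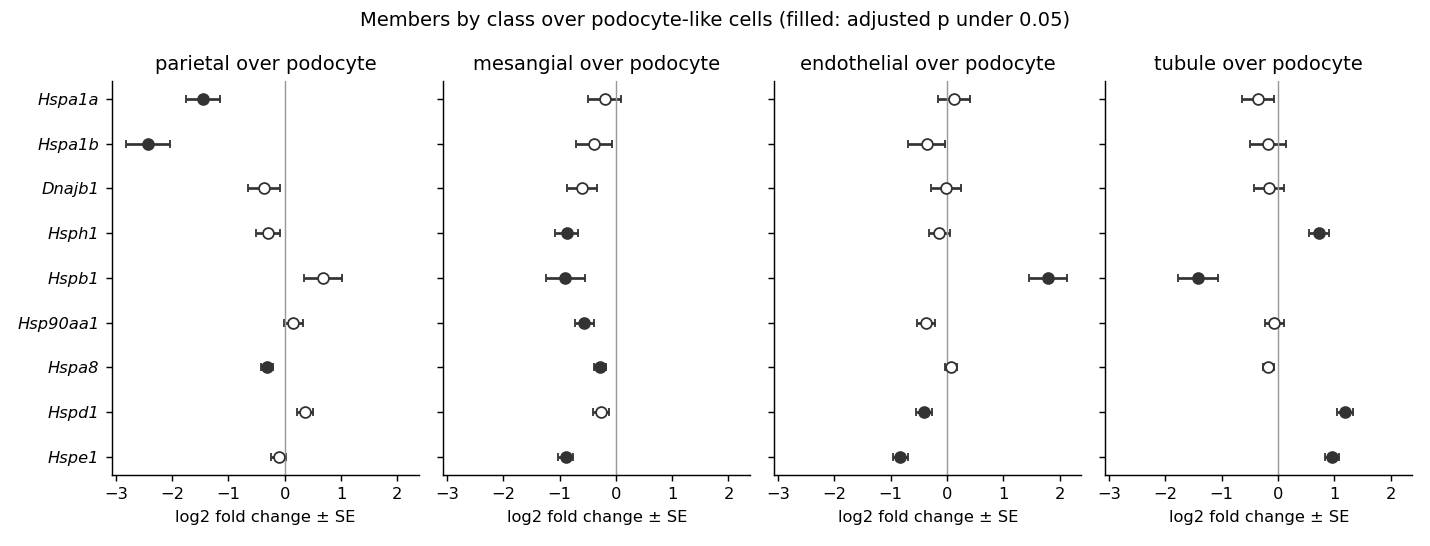
Log2 fold change of each member over podocyte-like cells in 4 classes (edgeR, bars are 1 SE, filled points have an adjusted p under 0.05). Hspb1 stands at 1.80 in endothelial-like cells and -1.42 in tubule-like cells, and Hspa1b at -2.43 in parietal-like cells.

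The summed level of the inducible members against the constitutive ones differed between classes and between libraries. Single members of both groups differed between classes, since edgeR called Hspd1 and Hspe1 in several pairs and Dnajb1 in none. Hspa1a and Hspa1b made up most of the inducible sum, 929 of 1184 and 443 of 591 CPM in podocyte-like cells. In parietal-like cells they made up 258 of 430 and 237 of 447 CPM. The ratio of the summed CPM of the 4 inducible to that of the 3 constitutive members was 0.229 and 0.227 in parietal-like, 0.386 and 0.552 in mesangial-like, 0.391 and 0.558 in endothelial-like, 0.401 and 0.336 in tubule-like and 0.581 and 0.336 in podocyte-like cells. Of these 5 classes, parietal-like cells had the lowest ratio in both libraries. Dnajb1 and Hsph1 were not called lower there than in podocyte-like cells. Under the male label both were higher there, Dnajb1 at 118 against 80.0 CPM and Hsph1 at 91.0 against 67.7 CPM. Classes with too few cells to be tested and the unnamed cluster stood at 0.574 and 0.570 (smooth muscle or renin, 44 and 62 cells), 0.324 and 0.133 (immune, 23 and 58 cells) and 0.334 and 0.214 (unnamed, 155 and 135 cells), so under the male label the last of these and the immune class were below parietal-like cells. Under the female label podocyte-like cells had the highest ratio, and under the male one theirs was below the mesangial-like and endothelial-like ones.

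The place of podocyte-like cells among the 5 classes differed between the libraries for Hspa1a and Hspa1b, while parietal-like cells were lowest for both genes in both. Podocyte-like cells had the highest level of both genes under the female label, and endothelial-like cells under the male one. With 1 library per title no test of the libraries was possible, so a ratio is given with a 95% conditional binomial interval that covers counting error only, and 1.5-fold at 20 CPM or more in either library was taken as a difference in size. In podocyte-like cells 5 of 9 members were past 1.5-fold higher in the library labelled female, against 1.18% of 6164 genes at that level, and 0 were past 1.5-fold lower, against 0.406%. Hspb1, at 317 CPM under the female and 170 CPM under the male label, was 1.87-fold higher (1.82 to 1.92). Dnajb1, at 140 CPM under the female and 80.0 CPM under the male label, was 1.75-fold higher (1.67 to 1.82), and Hsph1, at 116 CPM under the female and 67.7 CPM under the male label, 1.71-fold (1.63 to 1.79). Hspa1a was 1.96-fold (1.92 to 2.01) and Hspa1b 2.43-fold higher (2.35 to 2.51). The other 4 members, with ratios of 1.22 for Hsp90aa1, 1.14 for Hspa8, 1.27 for Hspd1 and 1.20 for Hspe1, stayed under 1.5-fold.

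In endothelial-like cells Hspa1a stood at 0.629-fold (0.577 to 0.685) in the library labelled female over that labelled male, the 1 member past 1.5-fold, and 3.87% of 7111 genes were that much lower and 4.75% higher. Hspa1b, at 0.69-fold, and Hsp90aa1, at 0.674-fold, lay on the same side and just inside the limit. In tubule-like cells Hspb1 was 2.66-fold (2.11 to 3.36), Dnajb1 1.77-fold (1.43 to 2.20) and Hsph1 1.62-fold higher (1.37 to 1.92) in the library labelled female, with 4.94% of 7041 genes that much higher and 6.08% lower. No member was past 1.5-fold in parietal-like cells, where 6.89% of 7370 genes were higher and 5.24% lower, or in mesangial-like cells, where 5.11% of 7219 genes were higher and 4.29% lower. Of 17 early response genes, 10 in podocyte-like and 7 in tubule-like cells were past 1.5-fold higher in the library labelled female, while endothelial-like cells had 0. How far that list and these members share a cause was not tested.

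**Figure D3:**
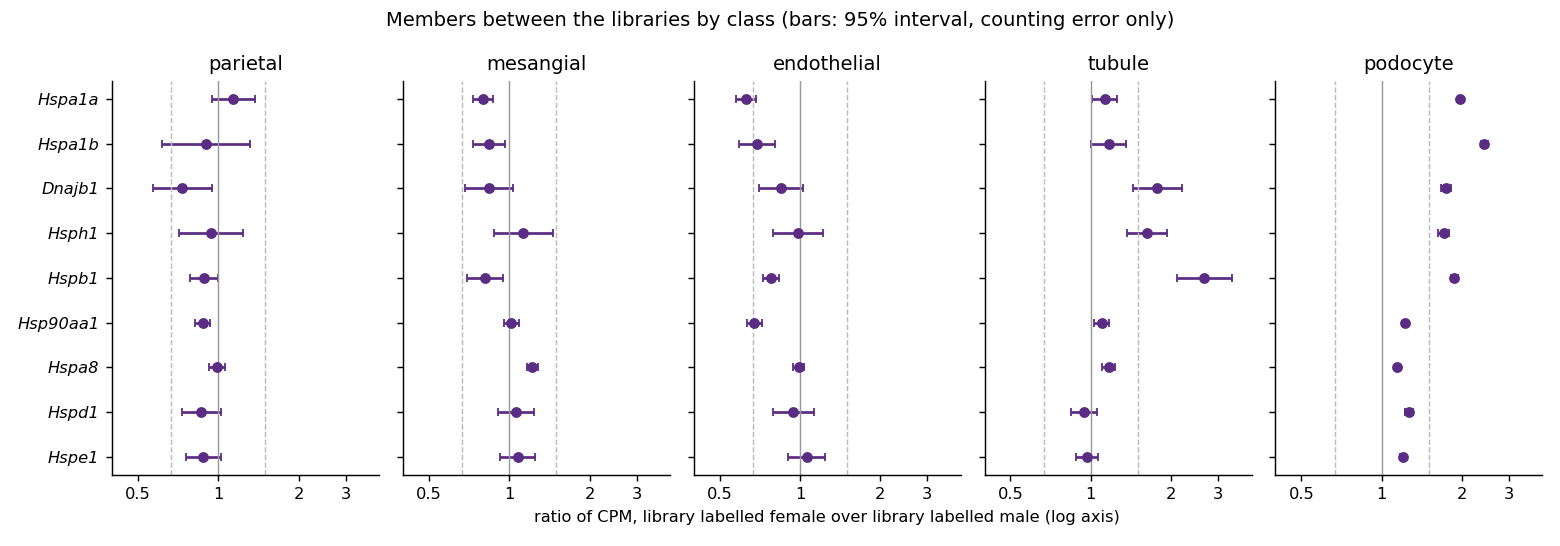
Ratio of CPM of each member in the library labelled female over that labelled male by class, on a log axis, with 95% intervals for counting error and dashed lines at 1.5-fold either way. In podocyte-like cells 5 members lie beyond 1.5-fold, up to 2.43 for Hspa1b, and in endothelial-like cells Hspa1a lies at 0.629.

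Within podocyte-like cells the members differed in the share of cells in which they were seen. After each cell was thinned to 3000 UMIs, Hspa1a was seen in 44.9% (43.4 to 46.5) of these cells under the female label and 32.8% (31.3 to 34.4) under the male one, with Clopper-Pearson intervals. For the same labels, Hspa1b was seen in 37.5% and 21.4%, Dnajb1 in 25.6% and 18.1%, Hsph1 in 24.2% and 16.8% and Hspb1 in 37.9% and 31.5%. Of the others, Hsp90aa1 was seen in 88.7% and 88.3%, Hspa8 in 97.6% and 96.3%, Hspd1 in 37.5% and 32.1% and Hspe1 in 51.5% and 47.5%. No class lacks these genes, so the class with the lowest share is given beside them: parietal-like cells for Hspa1a (33.8% and 28.6%) and Hspa1b (6.76% and 8.16%), and tubule-like cells for Hspb1 (23.6% and 13.2%). The lowest class differed from podocyte-like cells by little for Hspa1a in the library labelled male.

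Hspd1 and Hspa1b had nearly the same share of positive podocyte-like cells in the library labelled female (37.5% each), but their UMIs were divided differently. The variance of UMIs per cell over their mean, which is 1 for independent counts at 1 common level, was 2.87 under the female and 2.23 under the male label for Hspa1b, and 1.25 and 1.05 for Hspd1. It reached 5.26 and 4.59 for Hspa1a, 4.08 and 1.62 for Hspb1 and 2.85 and 2.15 for Hsp90aa1, and was between 1.20 and 2.20 for Dnajb1 and Hsph1, 1.73 and 1.61 for Hspa8 and 1.45 and 1.14 for Hspe1. At an equal relative spread this measure grows with the mean, so it does not rank members of unlike level by unevenness. Thinned levels were 1147 and 942 CPM for Hsp90aa1 and 173 and 132 CPM for Hspd1. The 10% of cells with the most Hspa1a UMIs held 52.1% and 63.0% of them, whereas for Hspa8 that share was 22.6% and 22.7%. Such a share also rises as the mean count falls, and thinned levels were 591 and 302 CPM for Hspa1a against 1562 and 1384 CPM for Hspa8. The highest count of Hspa1a in 1 thinned cell was 29 and 31 UMIs. The variance over the mean of Hspa1a was above 1 in tubule-like (3.50 and 7.04), endothelial-like (2.89 and 4.11) and mesangial-like cells (3.05 and 3.86) as well. It was lower in parietal-like cells (1.89 and 1.87), where the level of Hspa1a was also the lowest of these classes.

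The inducible members tended to occur in the same podocyte-like cells, most of all Hspa1a with Hspa1b. None of the 4 was seen in 30.6% of thinned cells under the female label and 42.7% under the male one, against 19.4% and 36.0% from the product of the single shares. All 4 were seen in 184 cells (4.51%) under the female and 39 cells (1.06%) under the male label, against 1.04% and 0.213% from that product. Hspa1b was seen in 58.9% and 38.7% of Hspa1a-positive cells and in 20.1% and 12.9% of the cells without Hspa1a. The mitochondrial pair showed less of this, with Hspe1 in 56.3% and 48.0% of Hspd1-positive cells and 48.6% and 47.2% of the rest. Across cells the Spearman correlation of Hspa1a with Hspa1b was 0.47 and 0.33 (4082 and 3666 cells, thinned counts that share the depth). That of Hspd1 with Hspe1 was 0.10 and 0.01. The other inducible pairs ran from 0.12 and 0.043 (Dnajb1 with Hsph1) to 0.22 and 0.13 (Hspa1a with Dnajb1). Hspa1a stood at 0.35 and 0.23 with Hsp90aa1 and at 0.21 and 0.14 with Hspa8. Joint occurrence was thus not confined to the inducible members. Cells are not replicates and these values describe 2 libraries.

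**Figure D4:**
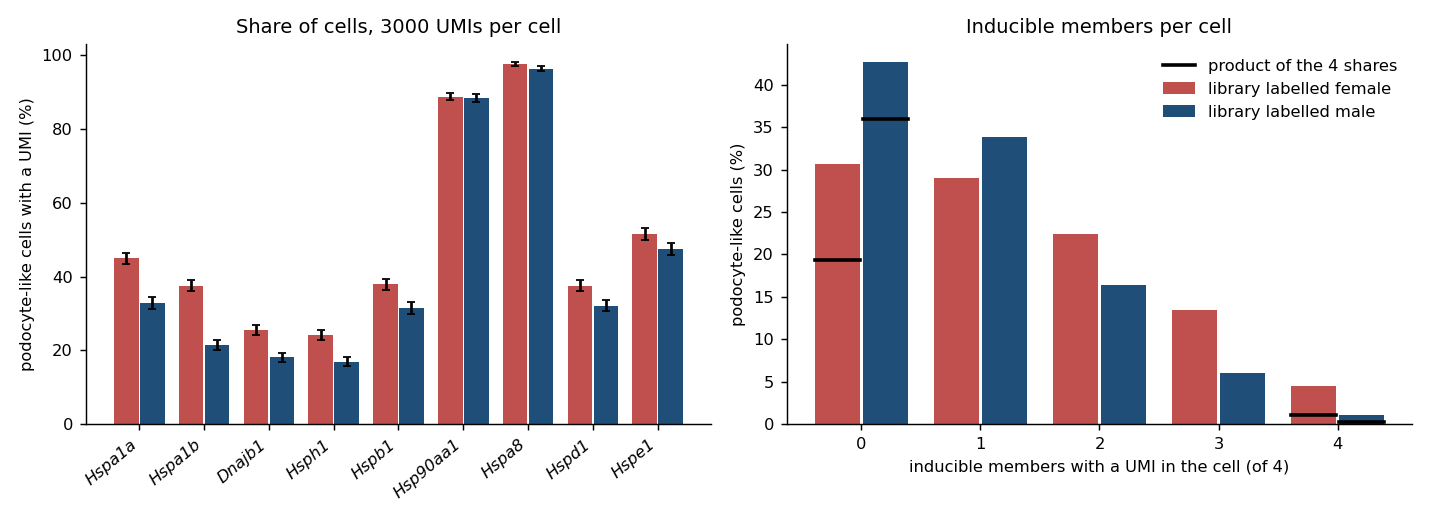
Left, share of podocyte-like cells with at least 1 UMI of each member after thinning to 3000 UMIs, with 95% Clopper-Pearson intervals. Right, share of cells by the number of inducible members seen (0 to 4), with the product of the single shares as black lines at 0 and 4. No inducible member is seen in 30.6% of cells labelled female and 42.7% labelled male, and all 4 in 4.51% and 1.06%.

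Podocyte-like cells also differed in early response transcripts, and the members followed them to different degrees. The cells of both libraries were put into 5 bins of nearly equal size by their UMIs of the 17 early response genes per 3000 UMIs, with the same limits in both libraries. The highest bin (109 to 345 UMIs) held 1128 cells labelled female and 440 labelled male, and the lowest (0 to 10) held 678 and 807. Along the bins Hspa1a stood at 104, 366, 482, 598 and 1131 CPM in the library labelled female and at 84.6, 241, 312, 456 and 609 CPM in the library labelled male. It was higher in each next bin of both libraries. Hspa1b stood at 68.5, 190, 236, 285 and 547 CPM in the library labelled female and at 52.0, 103, 126, 165 and 220 CPM in the library labelled male, in the same order. Hspa8 moved less, at 1217, 1335, 1379, 1564 and 2030 CPM in the library labelled female and 1189, 1327, 1311, 1508 and 1721 CPM in the library labelled male. Hspd1, at 127 and 128 CPM in the lowest bin, was at 244 and 170 CPM in the highest.

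Within bins the ratio of the library labelled female to the library labelled male was between 1.23 and 1.86 for Hspa1a and between 1.32 and 2.48 for Hspa1b, above 1 in all 5 bins for both genes. For Dnajb1 it went along the bins as 0.866, 1.04, 1.21, 1.37 and 1.47, and for Hspb1 as 0.825, 1.12, 1.21, 1.40 and 2.36. For Hspa8 it was between 1.01 and 1.18. In each of the 8 podocyte-like clusters with at least 100 cells in each library it was above 1, between 1.11 and 2.02 for Hspa1a and between 1.48 and 2.31 for Hspa1b. Without the 2 podocyte-like clusters led by early response genes, 2 of 9 members were past 1.5-fold, Hspa1a at 1.55 and Hspa1b at 1.92, in place of 5. A further cluster (190 and 129 cells), with Ier2, Socs3 and Hspa1a among its leading genes, stayed in. Its Hspa1a level was 1173 and 821 CPM, so cells high in early response genes were not all left out.

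**Figure D5:**
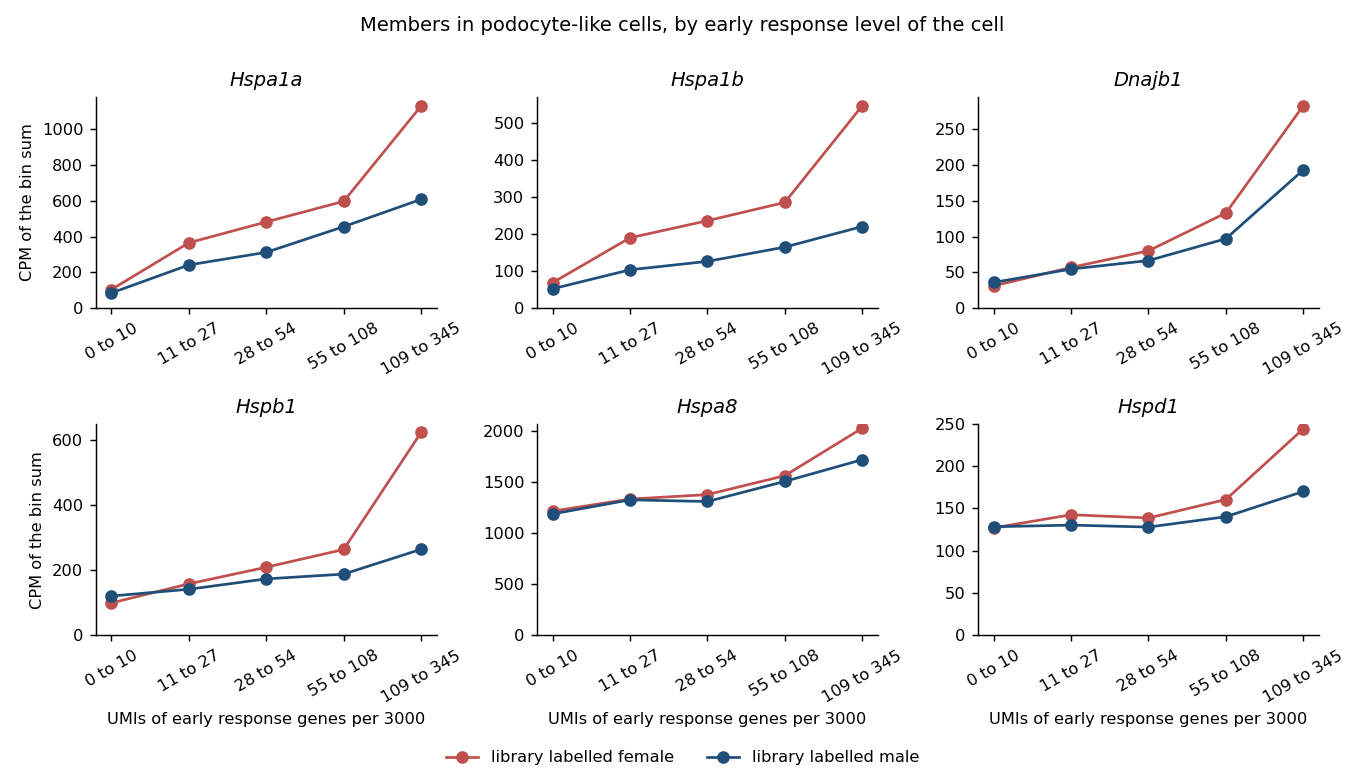
CPM of 6 members in podocyte-like cells, binned by the cell's UMIs of 17 early response genes per 3000 UMIs, for each library (linear axes from 0). Hspa1a stands at 104 CPM in the lowest and 1131 CPM in the highest bin of the library labelled female and at 84.6 and 609 CPM in the library labelled male, while Hspa8 stays between 1189 and 2030 CPM.

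Podocyte-like cells were also divided by their mitochondrial share, and 19 and 22 cells over 10% were too few to compare. In the libraries labelled female and male, cells with 5 to 10% mitochondrial UMIs had Hspa1a at 418 and 182 CPM and Hspa8 at 1428 and 1259 CPM, and cells with up to 3% had Hspa1a at 740 and 348 CPM and Hspa8 at 1637 and 1434 CPM. The libraries had the same median mitochondrial share in podocyte-like cells, 4.09% in each.

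Across 34 combinations of cluster and library with at least 20 cells, the log2 level of Zfp36 (Pearson r = 0.82), Ier2 (0.78), Junb (0.76) and Dusp1 (0.75) was among the 5 most like the mean of the 4 inducible members, out of 7657 genes. All 4 are early response genes on the list of 17. The points share 2 libraries and many are podocyte-like clusters, so the values are descriptions. With the same mean, Hsp90aa1 stood at 0.66, Hspa8 at 0.62, Hspb1 at 0.39, Hspe1 at 0.32 and Hspd1 at 0.24. Among the inducible members the pairs ran from 0.40 (Hspa1b with Dnajb1) to 0.92 (Hspa1a with Hspa1b), with Hspa1b with Hsph1 at 0.45, Hspa1a with Hsph1 at 0.46, Hspa1a with Dnajb1 at 0.53 and Dnajb1 with Hsph1 at 0.78. Hspd1 with Hspe1 stood at 0.85.

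The rest of the chaperone system was followed in 10 further lists of 80 genes. Their counts over podocyte-like cells are to be read against all genes tested, of which 27.6% rose and 24.9% fell in parietal-like, 27.8% and 28.8% in mesangial-like, 26.3% and 28.4% in endothelial-like and 30.4% and 26.7% in tubule-like cells, and many of the lists lie near these shares. Chaperones and proteases of the mitochondrial matrix followed Hspd1 and Hspe1: 7 of 8 rose in tubule-like cells, with Hspa9, the mitochondrial Hsp70, highest, at 388 and 383 CPM against 121 and 128 CPM in podocyte-like cells (log2 fold change 1.64, SE 0.11, edgeR adjusted p = 2.42e-07). In mesangial-like and endothelial-like cells 6 and 7 of the 8 fell, and in parietal-like cells 1 rose and 1 fell. Grpel1, the exchange factor of Hspa9, stood at 128 and 127 CPM in tubule-like and 83.8 and 81.7 CPM in podocyte-like cells. Chaperones of the endoplasmic reticulum went another way, since 12 of 15 fell in parietal-like, 15 in mesangial-like, 13 in endothelial-like and 13 in tubule-like against podocyte-like cells. Hspa5, the Hsp70 of that compartment, stood at 902 and 923 CPM in mesangial-like and 1580 and 1830 CPM in podocyte-like cells. Hsp90b1 stood at 966 and 977 CPM in mesangial-like and 1127 and 1255 CPM in podocyte-like cells, and the disulfide isomerase gene Pdia6 had the largest change called in the list, -1.64 in mesangial-like cells (SE 0.14, edgeR adjusted p = 1.33e-06).

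Of 4 small heat shock protein genes tested, 2 fell in parietal-like, 3 in mesangial-like, 3 in endothelial-like and 3 in tubule-like cells, and 1 rose in mesangial-like cells. Cryab, the alpha B crystallin gene, stood at 118 and 172 CPM in endothelial-like and 826 and 930 CPM in podocyte-like cells, the reverse of the order for Hspb1. Hspb8 stood at 16.6 and 11.4 CPM in endothelial-like and 105 and 97.1 CPM in podocyte-like cells, and Hspb2 had the largest change called in its list, -3.18 in endothelial-like cells (SE 0.33, edgeR adjusted p = 6.15e-06). Of 7 cytosolic J-domain genes tested, 4 fell in parietal-like, 4 in mesangial-like, 3 in endothelial-like and 5 in tubule-like cells, and 1 rose in endothelial-like cells. Dnaja1 stood at 876 and 957 CPM in endothelial-like and 724 and 484 CPM in podocyte-like cells, and Dnajb4 fell by 1.69 in endothelial-like cells (SE 0.13, edgeR adjusted p = 6.94e-07).

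Among 10 exchange factors and cochaperones of Hsp70, 2 rose and 2 fell in parietal-like, 1 and 5 in mesangial-like, 2 and 4 in endothelial-like and 4 and 2 in tubule-like cells. Bag1 stood at 324 and 293 CPM in tubule-like and 235 and 236 CPM in podocyte-like cells, St13 at 223 and 197 and at 187 and 205 CPM, and Bag2 had the largest change called in its list, 2.60 in parietal-like cells (SE 0.29, edgeR adjusted p = 1.67e-05). Of 8 genes of the Hsp90 system 1 rose and 2 fell in parietal-like, 1 and 1 in mesangial-like and 2 and 5 in tubule-like cells, and 1 fell in endothelial-like cells. Hsp90ab1, the constitutive cytosolic Hsp90, stood at 2596 and 2472 CPM in parietal-like and 2978 and 2892 CPM in podocyte-like cells. Ptges3 stood at 279 and 267 CPM in mesangial-like and 245 and 257 CPM in podocyte-like cells, and Fkbp5 rose by 1.44 in mesangial-like cells (SE 0.17, edgeR adjusted p = 1.62e-05).

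In the Hsp70 and Hsp110 family 1 of 7 rose in parietal-like, 1 rose and 3 fell in mesangial-like, 2 and 4 in endothelial-like and 1 and 3 in tubule-like cells. Hspa12b stood at 97.3 and 80.8 CPM in endothelial-like and 0.0600 and 0.0254 CPM in podocyte-like cells (3 and 1 UMIs), Hspa12a at 82.7 and 58.7 and at 232 and 247 CPM, and Hspa4 at 159 and 168 and at 193 and 204 CPM. Of 3 heat shock factor genes tested, Hsf1 stood at 16.6 and 20.9 CPM in tubule-like and 26.6 and 34.1 CPM in podocyte-like cells, its binding protein gene Hsbp1 at 180 and 174 and at 210 and 213 CPM, and Hsf2 fell by 0.81 in tubule-like cells (SE 0.23, edgeR adjusted p = 0.0107). In the list, 1 rose in parietal-like cells, 2 fell in endothelial-like and 2 in tubule-like cells. For the CCT chaperonin, 4 of 7 subunits fell in mesangial-like, 2 in endothelial-like and 1 in tubule-like cells, with Cct2 lower by 0.56 in mesangial-like cells (SE 0.11, edgeR adjusted p = 0.00121) and Cct5 at 164 and 154 CPM there against 180 and 187 CPM in podocyte-like cells. For prefoldin, 2 of 6 rose and 2 fell in parietal-like, 3 fell in mesangial-like, 3 in endothelial-like and 1 rose and 3 fell in tubule-like cells, with Pfdn1 higher by 0.85 in parietal-like cells (SE 0.11, edgeR adjusted p = 6.71e-05) and Pfdn5 at 597 and 636 CPM there against 693 and 688 CPM in podocyte-like cells.

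In podocyte-like cells the median log2 ratio of the library labelled female over that labelled male was 0.84 for the 4 inducible members, 0.57 for the 2 with a basal level and 0.25 for the 3 constitutive ones, against -0.01 over 6164 genes. The 10 other lists had medians between -0.14 and 0.07, and 1 of their genes was past 1.5-fold, Fkbp5 of the Hsp90 system, at 34.9 CPM under the female and 19.7 CPM under the male label. In the other classes the order was not the same. Past 1.5-fold were 5 of 72 genes of the lists and 0 of 9 members in parietal-like, 1 of 67 and 0 in mesangial-like, 4 of 68 and 1 in endothelial-like, and 2 of 67 and 3 in tubule-like cells.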

How the data were processed

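The authors deposited raw UMI counts per gene and barcode for each library, and per the submitters' processing notes Cell Ranger 6.1.2, STAR 2.7.5a and the build mm10 were used, with no role given. Barcodes with under 500 genes or over 20% mitochondrial UMIs were left out here. Libraries held 67648465 and 57841860 UMIs (labelled female and male). Counts were scaled to 10000 per cell, and 2000 variable genes without the members and early response genes gave 30 principal components, 20 neighbours and Leiden clusters at resolution 1.0 (scanpy 1.11.5, leidenalg 0.10.2). Clusters were named from marker lists, and the rule for counting markers was set after the clusters were seen. One of 19 clusters (290 cells, led by Cst12 and Igfbp6) stayed unnamed. Scrublet marked 2 and 1 cells, which is too few to have worked, so no doublets were removed. The planned minimum was 50 cells per class and library, and 45 was used, since the parietal-like class had 49 in the library labelled male.

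Summed counts were tested with edgeR 4.0.16 (TMM, filterByExpr, quasi-likelihood test, library as block) in R 4.3.3, with an adjusted p under 0.05 as the threshold. Nothing but the 2 mice replicates a class. On data simulated for tubule over podocyte (12419 genes), 58% of 2-fold and 81% of 4-fold changes were recovered, with 3.47% false calls. For cells, counts were thinned to 3000 UMIs. Intervals are at the 95% level and cover counting error only. Named genes of each further list are its 2 with the highest mean CPM and the one with the largest called change. The members, lists and tests were chosen with earlier results of these data known. Alternatives were RLE scaling, DESeq2 1.42.0, no low-count filter, no block, other clusterings, a 10% mitochondrial limit and leaving out each library. Leaving out the podocyte clusters led by early response genes, subtracting a podocyte profile and leaving out the parietal class were added after seeing the data. Results that need certain genes are not reported here.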

Additional observations from a re-analysis of the deposited data

Results flagged for a closer look

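In 16 of 36 pairs of a member and a class, the difference from podocyte-like cells had opposite signs in the libraries labelled female and male, on the scale of log2(CPM + 10). With 1 library each, no difference between the libraries was tested, and several of the values are close to 0. Each pair of values below is for the libraries labelled female and male. In parietal-like over podocyte-like cells Dnajb1 stood at -0.63 and 0.51, Hsph1 at -0.40 and 0.38, Hspa8 at -0.175 and 0.027 and Hspe1 at -0.086 and 0.35. In mesangial-like over podocyte-like cells Hspa1a stood at -0.57 and 0.70, Hspa1b at -0.81 and 0.65, Dnajb1 at -0.80 and 0.16 and Hspd1 at -0.16 and 0.080. In endothelial-like over podocyte-like cells Hspa1a stood at -0.52 and 1.09, Hspa1b at -1.002 and 0.72, Dnajb1 at -0.33 and 0.62, Hsph1 at -0.33 and 0.39 and Hsp90aa1 at -0.66 and 0.18. In tubule-like over podocyte-like cells Hspa1a stood at -0.68 and 0.11, Hspa1b at -0.58 and 0.42 and Hsp90aa1 at -0.14 and 0.014.

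The barcodes left out for over 20% mitochondrial UMIs were in no comparison, and they carried the chaperonin genes at a high level. Hspd1 stood at 629 and 526 CPM of the non-mitochondrial UMIs and Hspe1 at 785 and 726 CPM.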

How the results depend on the processing

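Of the 15 member calls over podocyte-like cells, 10 held under every alternative fitted, and of 30 calls between the other classes 23 did. The number of members called in parietal-like cells was 5 with no low-count filter (1 higher, 4 lower) and 5 without the podocyte clusters led by early response genes (3 higher, 2 lower), in place of 3 (0 higher, 3 lower). In mesangial-like cells it was 3 with RLE scaling, 2 with DESeq2, 3 without the replicate block, 3 at Leiden resolution 0.5, 2 without the early response clusters, 3 with podocyte RNA subtracted and 3 without the parietal class, in place of 5. In endothelial-like cells it was 5 with no low-count filter (1 higher, 4 lower), in place of 3 (1 higher, 2 lower), and without the early response clusters 3 were higher and 1 lower. Without the replicate block, where the block is the library, 2, 3, 3 and 4 members were called in parietal-like, mesangial-like, endothelial-like and tubule-like cells, against 3, 5, 3 and 4. Values with 1 library left out are on the log2(CPM + 10) scale and were set against edgeR's TMM-scaled values, so these counts also hold the change of scale. Without the library labelled female, 30 of 36 member fold changes over podocyte-like cells moved by at least 1 SE or, if not called, changed sign. One called value, below, turned its sign, and without the library labelled male 15 moved. Hspa1b in parietal-like cells stood at -2.53 in the library labelled female and -1.18 in that labelled male, Hspa1a at -1.50 and -0.73, and Hspb1 in endothelial-like cells at 1.29 and 2.51. Hspa8 in parietal-like over podocyte-like cells ranged from -0.175 (without the library labelled male) to 0.027 (without that labelled female) on the log2(CPM + 10) scale. The edgeR value from both libraries, -0.31, lay outside that range. Values with 1 library left out carry no test. Between the libraries, members past 1.5-fold in endothelial-like cells were 4 with cells thinned to 3000 UMIs, 4 without the 5% highest Scrublet scores and 3 with podocyte RNA subtracted, in place of 1. In parietal-like cells there were 2 at Leiden resolution 0.5 and 1 with podocyte RNA subtracted, in mesangial-like cells 1 with podocyte RNA subtracted, both in place of 0, and in podocyte-like cells 2 without the early response clusters, in place of 5. The share of podocyte-like cells with any inducible member was 76.6% and 68.2% at 5000 UMIs and 87.3% and 80.9% unthinned, in place of 69.4% and 57.3%. The cause of these changes was not tested. Tubule-like cells had too few cells for a value at a 10% mitochondrial limit.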
